A study of Mus musculus with 3 samples.

Results

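Sites bound by HIF1α were mapped by ChIP-seq, the sequencing of DNA pulled down with an antibody against the protein, in hearts of wild-type Black-Swiss mouse embryos at E12.5. The regions described here are the moderate replicated peaks at the ends of protein-coding genes, 719 of the 17289 peaks in the authors' merged list. A peak belonged to them when it was merged from 2 calls, had an authors' score of 2 to 5, and had its centre within 1 kb of either end of a protein-coding gene on chromosomes 1 to 19, X or Y. They were therefore chosen by their measured calls and scores, so those values are given as a description and support nothing. Along with the 2 HIF1α pulldowns, the study had 1 input, which is chromatin taken without an antibody. Whether the pulldowns came from separate pools of embryos is not stated. The list holds no values per pulldown, so replicate error cannot be given and no difference was tested. The intervals are exact 95% Clopper-Pearson intervals, which cover counting error over peaks or genes only. Both sets of calls shared the input.

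HIF1α is the oxygen-regulated subunit of hypoxia-inducible factor. When oxygen is low it escapes degradation, pairs with ARNT and binds a short DNA core, the HIF response element, at the promoters and enhancers of its target genes. Its best known targets drive glycolysis and glucose uptake, blood vessel growth and the feedback that limits the response itself. In the embryonic heart it is known for its part in the metabolism and growth of the myocardium.

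Of the 1408 moderate replicated peaks on these chromosomes, 719 (51.1%, interval 48.4 to 53.7%) lay at a coding gene end, and they touched 831 genes. For comparison, 313 of 581 strong replicated peaks, those with a score of 6 or more, lay at such an end (53.9%, 49.7 to 58.0%). Among single-call peaks in the same score range, 2217 of 15175 did (14.6%, 14.1 to 15.2%). Scores inside that range were not matched in this or later comparisons. At coding gene ends the median score was 3 (quartiles 3 and 4) for single-call peaks and 4 (quartiles 3 and 5) for moderate replicated peaks. Within the moderate replicated peaks the share differed by score. It was 15.7% (18 of 115) at a score of 2, 48.2% (224 of 465) at 3, 58.2% (287 of 493) at 4 and 56.7% (190 of 335) at 5. Just past the upper limit, 80 replicated peaks with a score of 6 lay at coding gene ends.

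The sequence under a few of these peaks is printed as examples, which do not stand for the rest. All were read from RefSeq promoters of GRCm38.p6, the build also called mm10, 5′ to 3′ on the strand of the gene. Each is centred on the peak, except at Mrpl53 and Mrpl58, where it is cut off before the start. Capitals mark a HIF response element core, ACGTG or GCGTG on either strand. The first 2 were the peaks that the naming rule picked for a core close to the centre, 1 for each gene list. Ppp1r15a encodes GADD34, the phosphatase subunit that ends the integrated stress response. Its stretch, chr7:45526416-45526516 on the minus strand, is centred 198 bases before the start and has a core 1 base from the centre. Cdk7 encodes the kinase of TFIIH and of the CDK-activating complex. Its stretch, chr13:100730971-100731071 on the minus strand, is centred 79 bases before the start, and its core is part of the palindrome CACGTG, 18 bases from the centre.
Ppp1r15a: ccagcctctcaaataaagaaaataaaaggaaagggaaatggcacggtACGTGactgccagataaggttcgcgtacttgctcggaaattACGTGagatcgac
Cdk7: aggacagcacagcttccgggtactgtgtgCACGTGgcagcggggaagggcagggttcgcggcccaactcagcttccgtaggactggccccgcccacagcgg

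Of 15 named peaks centred 51 to 200 bases before a start, 3 had a core within 25 bases of the centre and 10 had none within 50 bases of it. The third, at Cdk4, was in the same list as Cdk7 and is not printed. The next 2 stretches hold no core. In them the capitals mark the YY1 core AAGATGGC at Phf8, a histone demethylase gene, and the ETS motif CCGGAAG at Sdhaf3, which encodes an assembly factor of respiratory complex II. They are chrX:151520473-151520573 on the plus strand, centred 149 bases before the Phf8 start, and chr6:6955810-6955910 on the plus strand, centred 158 bases before the Sdhaf3 start.
Phf8: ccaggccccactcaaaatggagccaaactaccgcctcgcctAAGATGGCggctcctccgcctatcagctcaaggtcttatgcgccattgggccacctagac
Sdhaf3: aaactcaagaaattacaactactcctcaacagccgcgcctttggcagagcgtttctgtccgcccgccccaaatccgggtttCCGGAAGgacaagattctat

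Genes of the mitochondrial ribosome are shown because they had the highest share of any gene list, given below. This set was chosen after that share was seen. The stretch at Mrps26 is chr2:130563621-130563721 on the plus strand, and at Mrpl43 it is chr19:45006447-45006547 on the minus strand. The stretch at Mrpl53 is chr6:83109028-83109107 and at Mrpl58 chr11:115403654-115403751, both on the plus strand and both ending 1 base before the start. In the first pair the capitals mark the HIF response element core, and in the second pair, which holds no core, the ETS motif. The stretches at Mrpl39, Mrps17 and Mrps33 hold no core, YY1 core or ETS motif and are not printed.
Mrps26: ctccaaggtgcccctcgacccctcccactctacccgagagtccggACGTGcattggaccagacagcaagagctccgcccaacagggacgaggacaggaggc
Mrpl43: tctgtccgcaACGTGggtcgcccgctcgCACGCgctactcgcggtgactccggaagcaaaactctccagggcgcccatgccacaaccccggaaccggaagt
Mrpl53: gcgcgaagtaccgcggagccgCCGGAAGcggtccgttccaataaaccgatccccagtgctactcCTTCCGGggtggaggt
Mrpl58: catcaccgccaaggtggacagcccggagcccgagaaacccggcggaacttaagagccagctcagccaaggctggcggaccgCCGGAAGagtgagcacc

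The peaks lay close to the gene ends. The rule capped the distance at 1 kb, so only its spread inside that limit is described. The median distance from peak centre to the nearest coding gene end was 97 bp (quartiles 36 and 263 bp), against 114 bp (47 and 280 bp) for strong replicated peaks and 169 bp (65 and 391 bp) for single-call peaks. Within 100 bp lay 51.5% of the moderate replicated peaks (47.7 to 55.2%), 46.6% of the strong (41.0 to 52.3%) and 35.0% of the single-call peaks (33.1 to 37.1%). The first of these intervals overlaps the second and lies above the third. Within 500 bp the shares were 88.6%, 87.2% and 80.9% in the same order. By score, the median distance was 180.5 bp at 2, 90.5 bp at 3, 91 bp at 4 and 132 bp at 5. The moderate replicated peaks had a median width of 126 bp (quartiles 112 and 147 bp), against 116 bp for strong replicated peaks, while all single-call peaks had the same width, the smallest in the list.

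**Figure D1:**
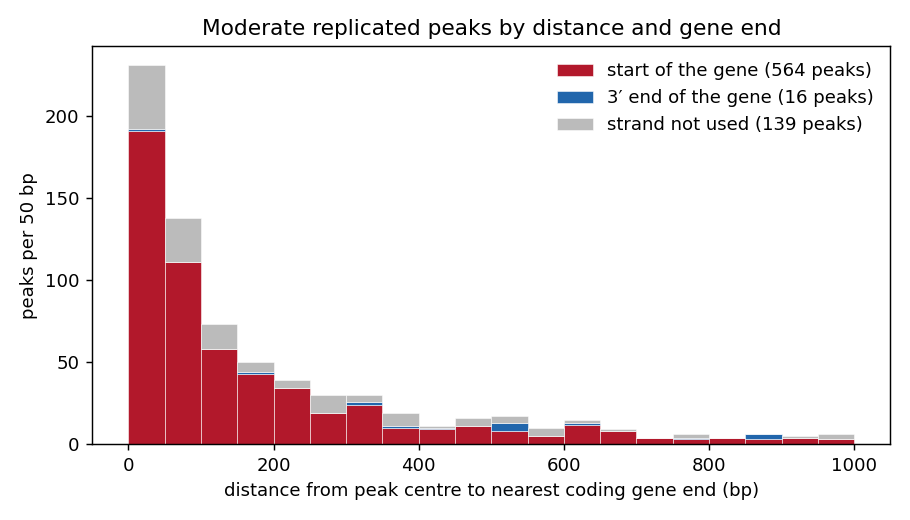
Moderate replicated peaks in 50 bp steps of the distance from the peak centre to the nearest coding gene end (x axis, bp; y axis, number of peaks), stacked by which end of the gene it is. The bars are highest in the first 2 steps, and over all steps 564 peaks lay at a start, 16 at a 3′ end and 139 at genes whose strand was not used.

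Where the strand was known, nearly all were start peaks. The rule used either end of a gene and not its strand. The nearest gene had a strand in the promoter table for 580 peaks, and 564 of them (97.2%, 95.6 to 98.4%) lay at the start. The shares were 97.2% (243 of 250) for strong replicated and 89.9% (1630 of 1813; 88.4 to 91.3%) for single-call peaks. Of the start peaks, 290 of 564 (51.4%, 47.2 to 55.6%) were centred upstream of the start. The remainder were centred inside the gene, and exons, introns and UTRs were not told apart. In a finer view, 389 peaks were centred in a promoter window of 250 bases before to 50 bases after the annotated start. Their median position, 48 bases before it (quartiles 107 and 12 bases before), is partly set by that lopsided window. Within 50 bases on either side of the start, 124 were centred before it and 76 from it onward, so 62.0% were before it (54.9 to 68.8%). The same share was 59.1% (39 of 66) for strong replicated and 58.2% (219 of 376) for single-call peaks, and all 3 intervals overlap.

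The 16 peaks nearest a 3′ end lay 21 to 892 bp from it. The nearest to its 3′ end was at P4htm, which encodes a membrane-bound prolyl hydroxylase, 21 bp from the end. That peak (score 4) was also 128 bp from the start of Wdr6. The next were at Mapkapk2, a stress-activated kinase gene, at 191 bp, and at Bcat2, which encodes the mitochondrial branched-chain aminotransferase, at 318 bp. Apoa1, an apolipoprotein gene used here as a liver marker, had a peak with a score of 3 at 343 bp. At 3 of the 16 ends, those of P4htm, LOC108168956 and Atg9b, another coding gene also had an end within 1 kb. These genes were named after the split was seen.

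The 10 genes with the shortest distances had a peak centre 0 to 2 bp from a gene end. The peak at Ap5s1, a subunit of the AP-5 adaptor complex, was centred exactly on the start and had a score of 5. Peaks at Slc25a15, the mitochondrial ornithine carrier gene, Taf8, a TFIID subunit gene, and Zfp882, a zinc finger gene, were centred 1 bp from the start. Those at Gfus and Mtmr9 lay 1 bp from an end whose strand was not used. Those at Anxa9, Dyrk1b, Eps15 and Fhad1 lay 2 bp from the start. Their scores were 3 to 5. At the other edge of the rule, the farthest peaks kept were those at Ascl2 (988 bp), Gm34296 (991 bp) and B3gnt9 (1000 bp). The nearest peaks left out were those at Prrt3 (1008 bp), Ublcp1 (1008 bp) and Mtif2 (1019 bp), with scores of 2 to 4.

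Some of the promoters were shared between 2 genes that run in opposite directions. Of the 719 peaks, 117 (16.3%, 13.6 to 19.2%) had at least 2 coding genes in the window, against 18.8% of strong replicated (14.7 to 23.6%) and 14.3% of single-call peaks (12.9 to 15.8%). Where both strands were known, 59 of 77 such pairs (76.6%, 65.6 to 85.5%) were head to head, with 5 to 779 bases between the starts and a median of 130. Counted by gene, 126 of the 635 genes with a moderate replicated peak at the start (19.8%, 16.8 to 23.2%) had another coding start on the opposite strand within 1 kb. Among all 17492 coding genes with a strand it was 1795 (10.3%, 9.82 to 10.7%). These 2 shares are not like for like. A single peak between paired starts adds both genes to the bound ones, which raises their share by construction.

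A few of the 59 pairs are described here, chosen after their values were seen for holding a gene of the lists below, and they do not stand for the rest. Mrpl30, a gene of the large mitochondrial ribosomal subunit, and Mitd1 start 28 bases apart, and the peak (score 4) lay 6 bp from the Mrpl30 start and 34 bp from that of Mitd1. Mrpl21, of the same subunit, and the helicase gene Ighmbp2 start 13 bases apart, with a peak of score 5 at 3 and 16 bp. Rars2, the mitochondrial arginyl-tRNA synthetase gene, and Orc3, a subunit of the origin recognition complex, start 6 bases apart, with a peak of score 4 at 75 and 81 bp. Ndufv3, a complex I gene, and Wdr4, whose product works in tRNA methylation, start 130 bases apart with a peak of score 5. Ptcd3, a gene of the small mitochondrial ribosomal subunit, faces Polr1a, the largest subunit of RNA polymerase I, across 280 bases. The Ppp1r15a peak printed above also lay 136 bp from the start of Plekha4. In these pairs 1 peak stands for both genes, so they are not separate observations.

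Several moderate replicated peaks were found at 10 genes, 2 at each. Llgl1, a cell polarity gene, had one 15 bp and another 603 bp from its start. Dennd4b had peaks at 74 and 795 bp from the start and Zfp335, a transcriptional regulator gene, at 235 and 849 bp. Trmt112 and Prdx5, a mitochondrial peroxiredoxin gene, share both of their peaks. Ufc1, the UFM1-conjugating enzyme gene, had 1 peak 231 bp from its start and another 646 bp from its 3′ end. The others were Gm32584, Gm45927, Prelid2 and Zcchc3. Another peak of any kind lay within 1 kb of 67 of the 719 peaks (9.32%, 7.29 to 11.7%), and a noncoding gene end lay in the window of 102 (14.2%, 11.7 to 17.0%).

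The 831 genes are 3.82% of the 21779 protein-coding genes. That is the background for every list share below. In the same windows, 1.76% of coding genes had a strong replicated peak, 10.9% a single-call peak of score 2 to 5, and 16.2% a peak of any kind. Of the 831 genes, 7 also had a strong replicated peak and 72 also had a single-call peak. The peak groups share no peaks by definition, so such a gene had a further, separate peak in its window. Whether these overlaps differ from the shares of all coding genes was not tested. Of 43 gene lists, 31 had a share of member genes above 3.82%, and 8 had an interval wholly above it. Strong replicated peaks had 32 lists and single-call peaks 31 lists above their own background, so a raised share in most lists was not particular to the moderate peaks.

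The mitochondrial ribosome had the highest share. This ribosome makes the core subunits of the respiratory chain that are encoded in mitochondrial DNA. Of its 82 genes, 18 (22.0%, 13.6 to 32.5%) had a moderate replicated peak, 4 had a strong replicated peak and 18 a single-call peak, and 41 had a peak of any kind. From nearest to farthest the 18 were Mrpl21 (3 bp), Ptcd3 (4), Mrpl30 (6), Mrpl58 (20), Mrpl17 (28), Mrpl39 (29), Mrps33 (29), Mrpl53 (30), Mrps15 (35), Mrpl43 (55), Mrpl3 (59), Mrps17 (83), Mrps26 (86), Mrpl16 (117), Mrpl11 (223), Mrpl14 (492), Mrpl20 (653) and Dap3 (967). Their median distance was 45 bp, and 17 of them were start peaks, while the strand of Dap3 was not used. Their scores were 3 to 5. The Mrpl14 peak was nearer to the start of Tmem63b, at 129 bp.

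Other lists of mitochondrial genes differed among themselves. Protein import and dynamics had 8 of 51 genes (15.7%, 7.02 to 28.6%), with Chchd1 at 25 bp, Timm44, an adaptor of the import motor, at 32 bp and Opa1, the inner membrane fusion gene, at 39 bp. Chchd1 is also known as a protein of the small mitochondrial ribosomal subunit. Fatty acid oxidation had 3 of 25 (12%, 2.55 to 31.2%). These were Eci2 at 11 bp, the carnitine acetyltransferase gene Crat at 14 bp and the heart fatty-acid-binding protein gene Fabp3 at 761 bp. The respiratory chain and ATP synthase had 6 of 106 (5.66%, 2.11 to 11.9%), among them Ndufv3 at 33 bp, Sdhaf3 at 111 bp and the complex I gene Ndufs1 at 172 bp. The Ndufs1 peak was shared with Eef1b2, which starts on the other side of it. The SLC25 carriers had 2 of 47 (4.26%), Slc25a15 and the oxoglutarate carrier gene Slc25a11 at 624 bp. The Slc25a11 peak was nearer to the start of Rnf167, at 323 bp. The tricarboxylic acid cycle had none of 29, which allows a share of up to 11.9% by the interval.

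Gene lists classically tied to HIF1α had more genes at strong than at moderate replicated peaks. Among hypoxia response and HIF feedback genes, 3 of 35 (8.57%, 1.80 to 23.1%) had a moderate replicated peak, against 17 of 35 (48.6%) with a strong one. The 3 were Arnt, the partner of HIF1α, with a peak of score 4 at 187 bp, Siah2, a ubiquitin ligase of the oxygen-sensing pathway, with score 4 at 300 bp, and the repressor gene Bhlhe40, with score 5 at 900 bp. In glycolysis, glucose uptake and lactate it was 1 of 31 (3.23%, 0.0816 to 16.7%) against 11 of 31 (35.5%) at strong peaks. That gene was Aldoc, which encodes aldolase C, with a peak of score 5, 18 bp from the start and inside the gene. The list of 2-oxoglutarate oxygenases had 2 of 47 (4.26%) against 10 of 47 (21.3%) at strong replicated peaks, and 11 of 47 at single-call peaks. The 2 were Phf8 at 118 bp and Tet3, which oxidises methylcytosine, at 965 bp. P4htm, the prolyl hydroxylase gene named above, is not in that list and is not counted. Over all coding genes, 3.82% had a moderate and 1.76% a strong replicated peak. The mitochondrial ribosome had the order of that background, with 22.0% of genes at moderate and 4.88% at strong replicated peaks. So did other lists, such as ER to Golgi coats and tethers, with 14.1% against 3.53%. The reverse order was not particular to the lists tied to HIF1α. The KMT, HDAC and SWI/SNF chromatin list had 7.69% at moderate and 12.1% at strong replicated peaks. In the MYC, MAX and clock E-box list it was 2.78% and 11.1%. These differences were not tested.

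Translation and RNA lists followed. Aminoacyl-tRNA synthetases and tRNA modification had 10 of 74 (13.5%, 6.68 to 23.5%). Vars, the valyl-tRNA synthetase gene, had its peak at 3 bp, Trmt112, an activator of methyltransferases, at 6 bp and Lars2, the mitochondrial leucyl-tRNA synthetase gene, at 13 bp. RNA polymerases, general factors and Mediator had 15 of 128 (11.7%, 6.71 to 18.6%), with Taf8 at 1 bp, Polr2d, an RNA polymerase II subunit gene, at 5 bp and Gtf3c3, of TFIIIC, at 9 bp. Cytosolic ribosomal proteins had 9 of 87 (10.3%, 4.84 to 18.7%), with Rpl10a at 21 bp, Rpl7l1 at 24 bp and Rps20 at 41 bp. The Rpl7l1 peak was 1 of the 18 with the lowest score of 2. Pre-mRNA splicing had 9 of 110 (8.18%, 3.81 to 15.0%), with the helicase genes Dhx38 at 50 bp and Dhx16 at 62 bp and Snrpb2 at 73 bp. The Dhx38 peak was nearer to the start of Txnl4b, at 19 bp. Ribosome assembly had 4 of 67 (5.97%), with Ddx18 at 13 bp. Its fibrillarin gene Fbl, at 180 bp, shared the peak of Dyrk1b. Translation initiation and elongation factors had 4 of 78 (5.13%), with Eif1ad at 91 bp, Eif5 at 154 bp and Eef1b2 at 163 bp. That list had 25 of 78 genes (32.1%) at single-call peaks. The Eif1ad peak was nearer to the start of Banf1, at 28 bp.

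Among genes of transcriptional control, the Zfp series of C2H2 zinc finger genes had 31 of 465 (6.67%, 4.57 to 9.33%), with Zfp882 at 1 bp, Zscan22 at 5 bp and Zfp560 at 12 bp. The KMT, HDAC and SWI/SNF chromatin list had 7 of 91 (7.69%), with the deacetylase gene Hdac3 at 17 bp, Brd1 at 93 bp and the mitochondrial deacylase gene Sirt5 at 146 bp. Core and linker histones had 1 of 99 (1.01%, 0.0256 to 5.50%), H4c11 at 40 bp. The MYC, MAX and clock E-box list had 1 of 36 (2.78%), again Bhlhe40.

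**Figure D2:**
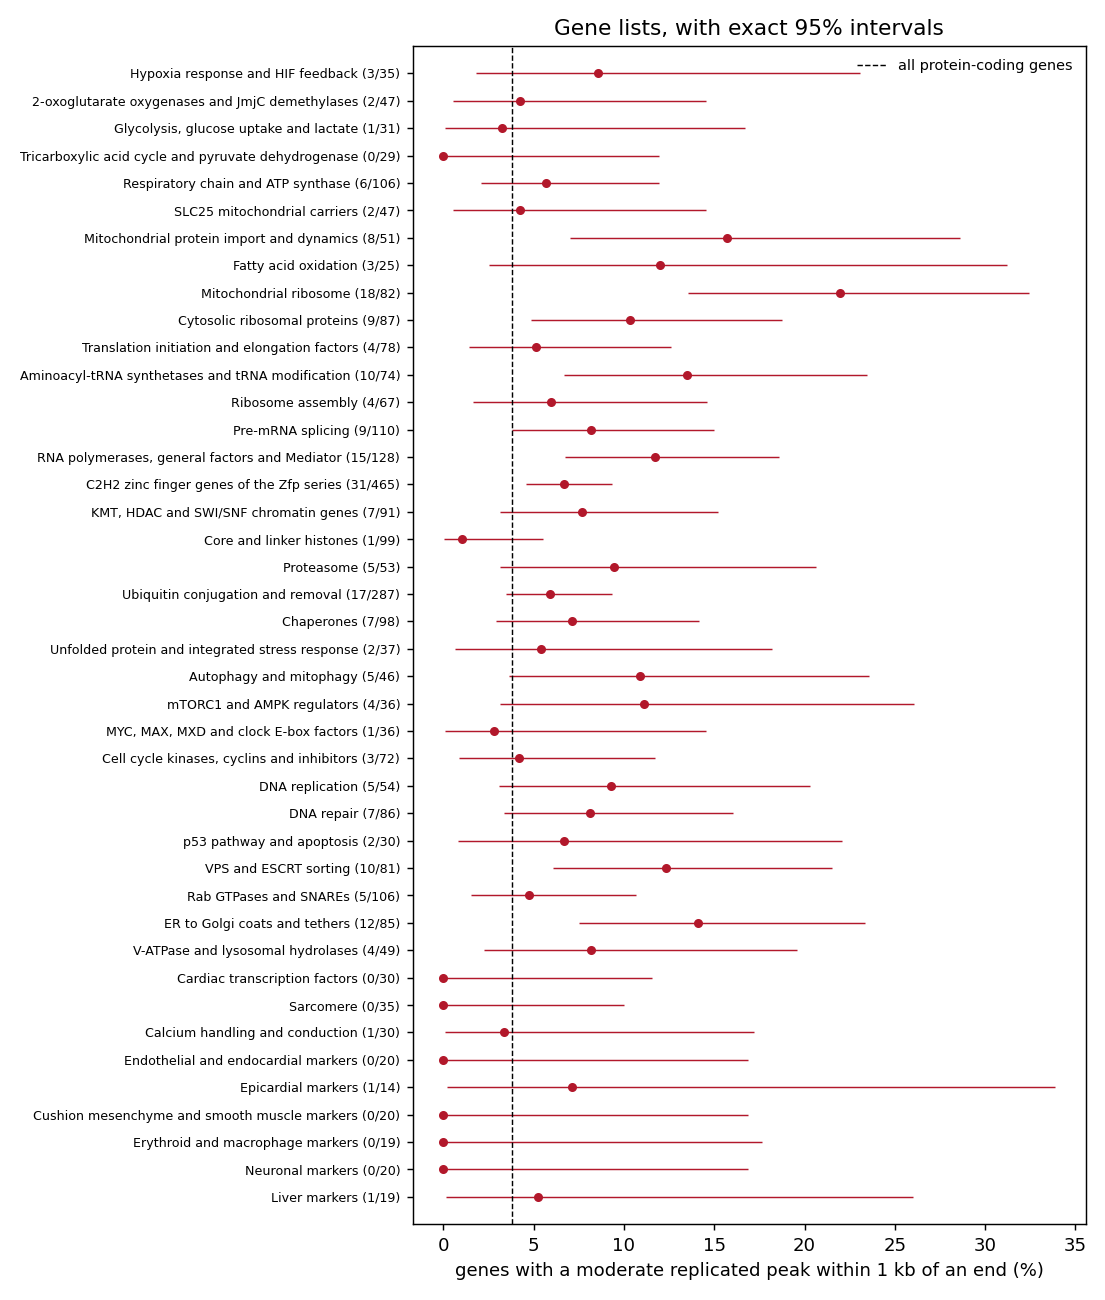
Share of each gene list with a moderate replicated peak within 1 kb of a gene end (x axis, percent; points), with exact 95% intervals as lines, the counts beside each name and the 3.82% of all coding genes as the dashed line; olfactory receptors, with none of 1109, are not drawn. The mitochondrial ribosome lies farthest right at 22.0%, and the cardiac and other cell type lists lie at the left or rest on 1 gene.

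Genes of membrane traffic and protein turnover were also among the bound genes. ER to Golgi coats and tethers had 12 of 85 (14.1%, 7.51 to 23.4%), with Sar1b, the GTPase that starts the COPII coat, at 13 bp, Cog3, a Golgi tether gene, at 26 bp and Copz2, of the COPI coat, at 27 bp. VPS and ESCRT sorting had 10 of 81 (12.3%, 6.08 to 21.5%), with Vps13d at 5 bp, Chmp7 of ESCRT-III at 11 bp and Vps28 of ESCRT-I at 16 bp. Rab GTPases and SNAREs had 5 of 106 (4.72%), with Rab28 at 10 bp, Stx16 at 13 bp and Vamp2 at 67 bp. The V-ATPase and lysosome list had 4 of 49 (8.16%), with Atp6v0c at 84 bp, Lamp1 at 87 bp and Mcoln1 at 92 bp. The peak at Lamp1 was at the start. Those at Atp6v0c and Mcoln1 were at the 3′ end of these genes and nearer to the start of a neighbour, 48 bp from that of Amdhd2 and 89 bp from that of Pnpla6.

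The proteasome had 5 of 53 (9.43%, 3.13 to 20.7%). Psmc2, an ATPase gene of the regulatory particle, had its peak at 5 bp and shared it with Dnajc2, a chaperone gene at 6 bp, and Psmd3 and Psmg1 followed at 8 and 22 bp. Ubiquitin conjugation and removal had 17 of 287 (5.92%), with the ubiquitin ligase genes Rnf220 at 18 bp and Fbxw11 at 29 bp and Uba2, of the SUMO-activating enzyme, at 30 bp. Chaperones had 7 of 98 (7.14%), with Bag6 at 19 bp and Dnajb6 at 36 bp after Dnajc2. Autophagy and mitophagy had 5 of 46 (10.9%, 3.62 to 23.6%), with Map1lc3b, the LC3B gene, at 44 bp, the initiation factor gene Ambra1 at 45 bp and Gabarap at 313 bp. The unfolded protein and integrated stress response had 2 of 37 (5.41%), the pseudokinase gene Trib3 at 107 bp and Ppp1r15a at 198 bp.

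In growth and division, mTORC1 and AMPK regulators had 4 of 36 (11.1%, 3.11 to 26.1%). They included Stk11, the AMPK-activating kinase LKB1, at 25 bp, the AMPK subunit gene Prkab2 at 85 bp and Tbc1d7, of the TSC complex, at 148 bp. DNA replication had 5 of 54 (9.26%, 3.08 to 20.3%), with the licensing factor gene Cdt1 at 24 bp, Cdc45 of the replicative helicase at 33 bp and the polymerase subunit gene Pold3 at 51 bp. DNA repair had 7 of 86 (8.14%), with Rad54l2 at 13 bp, the helicase gene Blm at 37 bp and the checkpoint kinase gene Atr at 73 bp. The Atr peak was nearer to an annotated start of 1700065D16Rik, 7 bases before it. Cell cycle kinases, cyclins and inhibitors had 3 of 72 (4.17%), which were Bub1b at 25 bp, Cdk7 at 79 bp and Cdk4 at 194 bp. The p53 pathway and apoptosis list had 2 of 30 (6.67%), with Bad, a pro-apoptotic gene of the BCL2 family, at 247 bp. The Bad peak was nearer to an annotated start of Gpr137, 107 bases before it. All of these shares except those of the lists named as wholly above 3.82% have intervals that include it. Those 8 lists were the mitochondrial ribosome, mitochondrial import and dynamics, cytosolic ribosomal proteins, aminoacyl-tRNA synthetases and tRNA modification, RNA polymerases and Mediator, the Zfp series, VPS and ESCRT sorting, and ER to Golgi coats.

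Lists of genes that define heart cells had 1 member gene or none, and they are too short to show a share below 3.82%. Cardiac transcription factors had none of 30 and the sarcomere none of 35, which allows shares of up to 11.6% and 10.0%. Calcium handling and conduction had 1 of 30, the connexin 45 gene Gjc1 at 443 bp. Endothelial and endocardial markers had none of 20, cushion mesenchyme and smooth muscle markers none of 20, erythroid and macrophage markers none of 19 and neuronal markers none of 20. The epicardial list had 1 of 14, Krt19 at 221 bp, and the liver list 1 of 19, the 3′ peak at Apoa1. The intervals of these lists, of 14 to 35 genes each, all include 3.82%. Olfactory receptors had none of 1109 (up to 0.332%), the only list whose interval lay wholly below the background. Single-call peaks touched 25 of those receptor genes (2.25%).

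The promoters holding a peak centre had more HIF response element cores than promoters in general. A core, ACGTG or GCGTG on either strand, was found in 306 of 389 promoters with a moderate replicated peak (78.7%, 74.3 to 82.6%). It was in 91.0% of those with a strong replicated peak (141 of 155, with an interval that starts at 85.3%), in 74.2% of those with a single-call peak (632 of 852; 71.1 to 77.1%) and in 49.3% of all 21263 coding promoters. The moderate interval lies above the share of all promoters and below the strong interval, and it overlaps the single-call one. These promoters also had more G and C. Median GC content was 62.0% in the moderate, 63.7% in the strong and 63.0% in the single-call group, against 56.3% in all coding promoters, and the median number of CpGs was 23, 26 and 24 against 13.

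Base composition moved with the core, so the share was split by GC content, a split chosen after the values were seen. Below 50% GC, 13 of 20 moderate promoters (65.0%) held a core, against 22.7% of all promoters. From 50 to 60% GC it was 77 promoters (62.6%) against 48.5%, from 60 to 70% it was 162 of 182 (89.0%) against 69.0%, and from 70% up 54 of 64 (84.4%) against 72.0%. The share in moderate promoters was above that in all promoters in each of the 4 GC classes, as were the strong and single-call shares. The moderate interval was wide below 50% GC (40.8 to 84.6%), and from 70% up it began at 73.1%, close to the share of all promoters. In the class from 50 to 60% the strong replicated promoters stood at 86.5% and the single-call promoters at 66.4%. From 70% up the single-call promoters stood at 85.3%.

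The cores were concentrated at the peak centres. Of 290 moderate peaks with 50 bases of promoter on both sides, 113 (39.0%, 33.3 to 44.8%) had a core within 25 bases of the centre and 152 (52.4%, 46.5 to 58.3%) within 50 bases. The same positions in all coding promoters, which were not matched for their lower GC content, gave 14.3% and 24.7%. Within 25 bases the strong replicated peaks reached 59.8% (50.6 to 68.6%) and the single-call peaks 26.9% (23.4 to 30.5%), so the 3 intervals do not overlap. In steps of 20 bp, a core was found in 19.6% and 22.5% of moderate peaks on the 2 sides of the centre, in 16.9% from 20 to 40 bp after it, and in 10.0 to 13.4% in the other 7 steps within 100 bp. The strong replicated peaks reached 31.3% and the single-call peaks 12.9% at most. A match describes letters in the sequence and does not show a bound site.

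**Figure D3:**
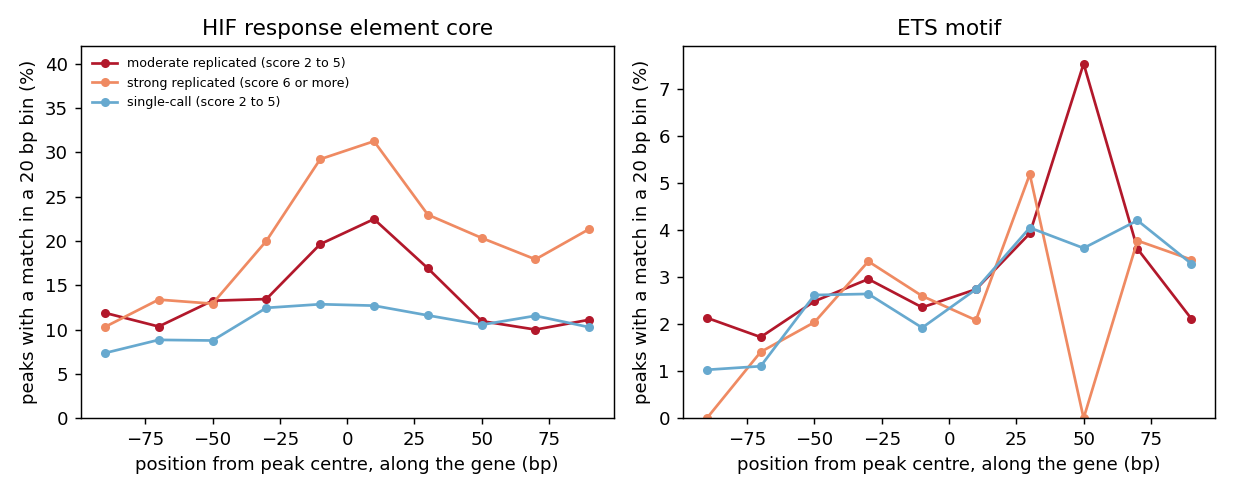
Share of peaks with a motif match in each 20 bp step around the peak centre (x axis, bp along the direction of the gene; y axis, percent), for the HIF response element core (left) and the ETS motif CCGGAAG (right) in the 3 peak groups. The core reaches 22.5% of moderate replicated peaks next to the centre, between 31.3% for strong replicated and 12.9% for single-call peaks, and the ETS match of moderate replicated peaks is highest, at 7.53%, from 40 to 60 bp after the centre.

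Other promoter motifs were also counted. The ETS motif CCGGAAG was in 27.5% of moderate promoters (23.1 to 32.2%), 24.5% of strong and 26.6% of single-call ones, against 11.6% of all. Within 50 bases of the centre it was in 53 of 290 moderate peaks (18.3%, 14.0 to 23.2%), 12.3% of strong and 12.48% of single-call peaks, against 5.30% at the same positions of all promoters. These 3 intervals overlap, and the share of all promoters was not matched for GC content. The YY1 core AAGATGGC was in 9.77% of moderate (7.01 to 13.2%), 17.4% of strong and 8.45% of single-call promoters, against 3.05% of all. The NRF1 core GCGCATGC was in 6.68%, 8.39% and 8.22%, against 3.52%. The SP/KLF motif GGGCGG, a GC-rich match, was in 73.0%, 72.3% and 69.5%, against 46.2%. Split by GC content, the excess of some of these motifs was not even. The ETS motif was in 4 of 20 moderate promoters below 50% GC, against 2.71% of all, and in 30.9% against 12.6% from 50 to 60%. From 60 to 70% GC it was in 31.3% of moderate and 19.6% of all promoters. From 70% up it was in 8 of 64, against 12.6% of all. From the lowest to the highest GC class the YY1 core was in 10%, 14.6%, 8.24% and 4.69% of moderate promoters. Among all promoters it was in 1.55%, 3.43%, 4.40% and 2.75%. In the same order the SP/KLF motif was in 35%, 56.9%, 79.7% and 96.9% of moderate promoters, against 6.73%, 38.5%, 77.0% and 92.5% of all. The NRF1 core was in 5%, 4.88%, 8.79% and 4.69%, against 0.705%, 4.11%, 5.68% and 4.05%. For the NRF1 core the share of all promoters lay within the moderate interval in each class.

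The E-box CACGTG, which contains the HIF response element core, was in 15.9% of moderate promoters, 17.4% of strong and 12.7% of single-call ones, against 7.84% of all. The cyclic AMP response element core TGACG was in 36.2%, 32.9% and 37.6%, against 23.6%, and the full site TGACGTCA, which contains it, in 3.08%, 3.87% and 4.34%, against 2.23%. By rising GC class TGACG was in 40%, 31.7%, 38.5% and 37.5% of moderate promoters, against 11.5%, 24.6%, 33.3% and 29.0% of all. From 50% GC up, each share of all promoters lay within the moderate interval. The next 3 motifs, rich in A and T, were less frequent than in all promoters when GC content was not held level. The TATA box TATAAA was in 5.91%, 6.45% and 5.87%, against 12.6%, and the GATA motif AGATAA in 4.63%, 5.81% and 4.11%, against 9.65%. The MEF2 motif TATTTATA was in 0.514%, 0% and 1.17%, against 1.58%. In promoters of 50 to 60% GC the TATA box was in 11.4% of moderate and 8.98% of all promoters, and the GATA motif in 8.94% and 8.99%. From 60 to 70% GC the GATA motif was in 2.75% and 3.25%. The NFY box CCAAT was in 34.7%, 27.1% and 33.8%, against 38.2%. The ATF4 element TGATGCAA was in 1 moderate promoter (0.257%), in 0% of strong and 0.352% of single-call ones, against 0.865%. Nothing is drawn about a factor from a motif that was not matched.

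**Figure D4:**
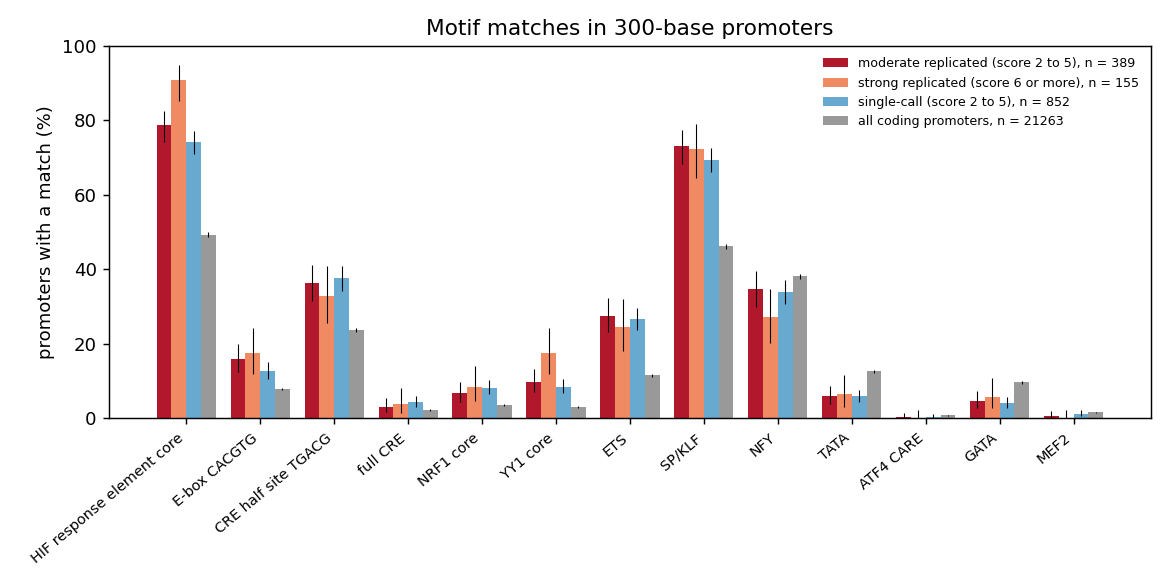
Share of 300-base promoters with at least 1 match to each motif (y axis, percent), for promoters holding the centre of a moderate replicated, strong replicated or single-call peak and for all coding promoters; lines are exact 95% intervals. For the HIF response element core the bars stand at 78.7%, 91.0%, 74.2% and 49.3% in that order.

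The printed stretches do not stand for all peaks, as each one without a core holds a YY1 or ETS match. Within 50 bases of the centre, the YY1 core was in 4.48% and the ETS motif in 18.3% of the 290 moderate peaks. Among the mitochondrial ribosome, 13 promoters held a moderate peak centre. Of these, 10 had a HIF response element core somewhere in the 300 bases, 6 had it within 50 bases of the centre and 7 had the ETS motif. Of all 76 promoters of that list, 67.1% had the core and 34.2% had the ETS motif, counted over promoters with and without a peak. Mrps26 had its core 3 bases from the centre, and Mrpl43 had its nearest core 20 bases away, with an ETS match 2 bases from the centre. Mrpl53 and Mrpl58 had no core in the whole window, and their nearest ETS matches lay 17 and 34 bases from the centre. Among the genes named above, a core lay 5 bases from the centre at Aldoc, 7 at Stk11, 14 at Cdt1 and 18 at Map1lc3b, and directly at the centre at Trmt112. At Zfp882 no core was found and the YY1 core lay 1.5 bases from the centre. At Timm44, Opa1, Lars2 and Cdc45 the window held neither the core, the YY1 core nor the ETS motif.

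By chromosome, the bound genes were spread over all autosomes. The share of coding genes ran from 2.54% on chromosome 1 (30 of 1183; 1.72 to 3.60%) to 5.29% on chromosome 3 (52 of 983; 3.98 to 6.88%). Both intervals lie apart from 3.82%, as does that of chromosome 11 (78 of 1602; 3.87 to 6.04%). Chromosomes 1 and 3 were picked as the lowest and highest autosomes after the values were seen. The X chromosome had 11 of 963 (1.14%, 0.572 to 2.03%), below the background and below the interval of chromosome 3. Among the X-linked genes were Phf8, Hdac6 at 209 bp with a score of 2, and the pair of Gm15246 and Hccs, the holocytochrome c synthase gene. The Y chromosome had none of 256 (up to 1.43%). The bound genes had a median length of 18754 bp, against 17217 bp for all coding genes.

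**Figure D5:**
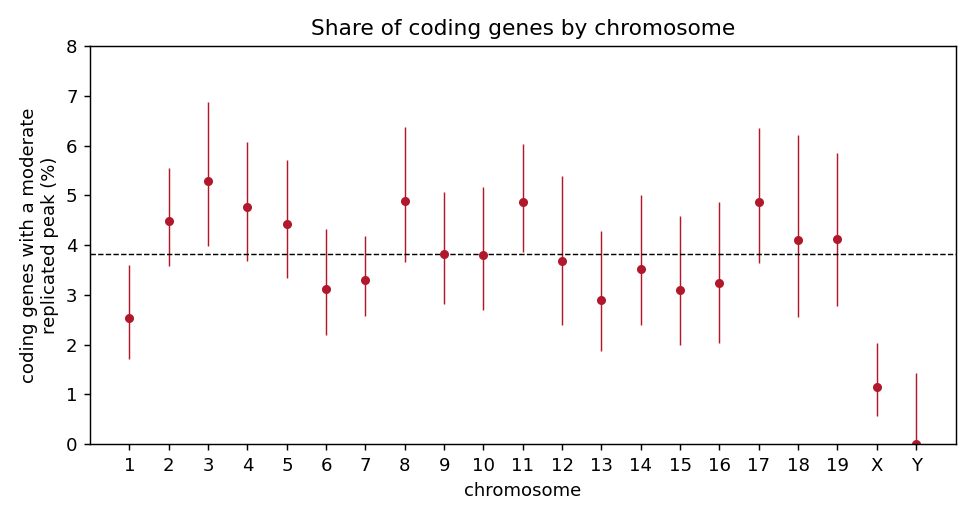
Share of the protein-coding genes of each chromosome that had a moderate replicated peak within 1 kb of an end (y axis, percent), with exact 95% intervals and the 3.82% of all coding genes as the dashed line. Chromosome 3 is highest at 5.29%, and X (1.14%) and Y (0%) are lowest.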

How the data were processed

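ChIP-seq libraries of 2 HIF1α pulldowns and 1 input from wild-type hearts came from the authors' Bowtie2 and HOMER runs on mm10 (versions not given), per the submitters' processing notes. They deposited a single peak list, merged over both pulldowns. Its score is a whole number set by the authors, and what it is relative to is not given in the sources used here. The digit at the end of a peak's name was taken to count its calls. Read depth is unknown from the list, and the pulldown behind a single call is not marked.

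Gene ends came from a RefSeq gene table, and strands, starts and sequences from RefSeq promoters (250 bases before to 50 after the start), both of GRCm38.p6. Promoters covered 17492 of 21779 coding genes, and other genes have no strand here. A gene can have several starts, so the distance to a gene end and to a promoter's start can differ. Shares and intervals were computed in Python 3.11.15 with pandas 2.3.3 and scipy 1.17.1. Distances and motif matches were tested on simulated data.

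From each of 43 lists the text names up to 3 member genes with the shortest distance, plus the 10 nearest genes, genes with several peaks and peaks at the distance limit. A gene that the rule names is not reported here. The members, lists and motifs were chosen with earlier results of these data known.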

Additional observations from a re-analysis of the deposited data

How the results depend on the processing

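With scores of 2 to 4 or 3 to 5, windows of 500 or 2000 bp, or any overlap with the window, the number of peaks was 529 to 783, against 719. The number of genes was 713 to 953, against 831, with the nearest gene only or with the other windows. Measured from the nearest edge of the peak, the median distance was 34 bp, against 97 bp from the centre, since the edge lies closer by construction. The share at the start was 98.8% within 500 bp and 94.8% over every coding gene end in the window, against 97.2%. The share with at least 2 coding genes was 22.3% within 2000 bp, against 16.3%, since a wider window holds more ends. The share with a HIF response element core was 52.4% within 50 bases of the centre, against 78.7% over the whole promoter. The first share searches fewer bases. It also rests on the 290 peaks with 50 bases of promoter on both sides, and the second on all 389 promoters. In promoters of rising GC content it was 65.0%, 62.6%, 89.0% and 84.4%, in classes added after the data were seen, and the cause was not tested. Between 30 and 32 lists stayed above the background. The MYC, MAX and clock list lost its only gene within 500 bp. The other list shares stayed within their intervals, 42 of 43 at 500 bp and 43 of 43 at 2000 bp.

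The list is pooled, so neither replicate error nor agreement between the pulldowns can be given. Both sets of calls used the same input. No paired analysis was possible because the result comes from no test and the list has no columns per pulldown. The depth is unknown, so genes without a peak cannot be told apart from genes below detection. The lists with no member gene, apart from the olfactory receptors, hold 19 to 35 genes, too few to show a share below the background.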
